A study of Mus musculus with 6 samples.

Results

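The ligase genes described here were chosen by symbol alone, with no measured value, from the 4 families whose names begin with Rnf (RING finger), Trim (tripartite motif), Fbxl, Fbxo or Fbxw (F-box, called Fbx here) and Klhl (Kelch-like) followed by a number. *Klhl3* and symbols containing -ps were left out. They made up 159 of the 12125 genes listed, with 63 Rnf, 30 Trim, 47 Fbx and 19 Klhl genes. Of these, 158 were protein-coding and 1, *Fbxl12os*, was an antisense RNA. Cells were sorted from the kidneys of 3 Trf1+/+ and 3 Trf1flox/flox mice, and the comparison asks how the cells differ when *Terf1*, the gene of the telomere-binding protein TRF1, is deleted. Mice of both groups carried Col1a2-CreERT2, a Cre recombinase that is active after tamoxifen and is driven by the promoter of a fibroblast collagen gene. They also carried a KFP reporter allele, a red fluorescent protein switched on by Cre, so that the groups differed in whether the *Terf1* alleles were flanked by lox sites. The mice were males and females of 6 to 8 weeks at the start, and the labels used here give no sex, strain or litter for each mouse. All received tamoxifen by intraperitoneal injection 3 times a week for 8 weeks. For each mouse, 500 cells sorted with antibodies against CD29 and the reporter gave 1 library. Values are given below in the order of replicates 1, 2 and 3 of each genotype, and these numbers pair no mice.

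The 6 libraries held 10263382 to 12248797 reads on the listed genes, and 8967 to 11593 genes were above 0. A single read was worth 0.689 to 1.09 normalized counts, and a gene counted as at the floor of a library when it held 3 reads or fewer there, a limit that covers counting error only. The library labelled Trf1+/+ replicate 1 stood apart with a median of 13.4 normalized counts per gene, against 118 to 148 in the other 5 libraries. It also had 0.891 normalized counts of *Terf1*, low for its label. In this library 43.8% of all listed genes were at the floor, so a wrong label and a failed detection cannot be told apart. The other libraries had 253 and 235 normalized counts of *Terf1* in Trf1+/+ and 110.0, 7.65 and 12.4 in Trf1flox/flox mice. The libraries are labelled as fibroblasts, but *Col1a2* was at or under 1.78 normalized counts in all 6, and of 10 fibroblast markers only *Col1a2* and *Dcn* had a row in the table used here. Their summed level was 1.66 to 94.6 in Trf1+/+ and 2.58 to 98.4 in Trf1flox/flox mice. All 8 proximal tubule markers were listed, with a sum of 14375 to 88173 in Trf1+/+ and 17046 to 105690.0 in Trf1flox/flox mice. The sum of the 6 markers of the loop, distal tubule and collecting duct was 72814 to 115848 and 52909 to 153728. The libraries are therefore called sorted kidney cells. In such bulk libraries, fewer cells of a type and less RNA per cell cannot be told apart, and the part of the cell make-up in the differences below was not tested.

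Ubiquitin is attached to proteins by a relay of an activating enzyme (E1), a conjugating enzyme (E2) and a ligase (E3), and the ligase chooses the substrate. RING finger proteins bind the loaded E2 and the substrate and bring them together. Most TRIM proteins are RING ligases that carry B-box and coiled-coil domains beside the RING, and many act in innate immunity or on chromatin. F-box proteins and Kelch-like proteins hold no RING of their own. F-box proteins dock substrates on SKP1 in the SCF complex, built on the cullin CUL1 and a small RING protein. Kelch-like proteins use a BTB domain to bind the cullin CUL3 and Kelch repeats to bind the substrate.

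Sequences are shown for the genes with the smallest p-values that had a single RefSeq promoter, to show how unlike their start regions were. Each is the stretch of 100 bases just upstream of the annotated start, on the minus strand of GRCm38.p6 from RefSeq, with the dinucleotide CG in capitals. They lie at chr9:108079302-108079401 for *Rnf123*, chr12:64965537-64965636 for *Klhl28*, chr8:121578807-121578906 for *Fbxo31* and chr7:104353350-104353449 for *Trim12c*. The counts of CG were 14, 5, 8 and 0, in this order. *Trim39* and *Rnf111*, both with higher values in Trf1flox/flox mice, had 3 and 2 promoters and are not printed. They held 2 and 9 CG in the stretch of 100 bases. A link between CG and the direction of a difference was not tested.
Rnf123: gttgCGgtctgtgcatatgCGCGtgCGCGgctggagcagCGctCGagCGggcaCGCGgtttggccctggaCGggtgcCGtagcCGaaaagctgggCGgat
Klhl28: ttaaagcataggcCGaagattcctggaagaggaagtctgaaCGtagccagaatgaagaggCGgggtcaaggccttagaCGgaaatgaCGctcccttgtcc
Fbxo31: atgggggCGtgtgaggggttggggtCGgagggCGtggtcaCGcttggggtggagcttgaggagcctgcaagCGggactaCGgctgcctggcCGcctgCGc
Trim12c: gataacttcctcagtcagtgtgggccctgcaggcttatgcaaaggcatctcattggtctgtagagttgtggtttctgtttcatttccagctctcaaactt

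*Trim12c* belongs to a cluster of mouse relatives of the antiviral gene TRIM5 on chromosome 7. Where their sequences match, a read cannot be assigned to a single gene by its sequence. The first 90 coding bases are printed for the longest coding transcripts of *Trim12c*, *Trim12a* and *Trim5* in GENCODE vM21 on GRCm38, and the capitals mark the 2 positions at which the 3 genes differ. *Trim12a* and *Trim5* each differed from *Trim12c* at 2 positions of this stretch.
Trim12c: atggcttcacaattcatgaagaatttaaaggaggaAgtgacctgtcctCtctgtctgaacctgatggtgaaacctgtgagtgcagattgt
Trim12a: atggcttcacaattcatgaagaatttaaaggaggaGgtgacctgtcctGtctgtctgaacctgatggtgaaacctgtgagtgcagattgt
Trim5: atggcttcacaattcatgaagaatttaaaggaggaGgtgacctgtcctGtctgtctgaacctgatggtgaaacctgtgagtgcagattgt
Over their whole exons, 33.7% of the 50-base stretches of *Trim12c*, 36.6% of those of *Trim5* and 10.5% of those of *Trim12a* also occurred in another gene.

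No ligase gene differed between the genotypes after adjustment over all genes. With limma on log2(normalized count + 1), 0 of the 120 ligase genes that reached 10 normalized counts in 3 or more libraries had an adjusted p under 0.05, as had 0% of all 9966 genes tested. The smallest adjusted p was 0.262, for *Rnf123*, which passed the filter through the Trf1flox/flox libraries alone and so had to differ. At an unadjusted p under 0.05, 5 ligase genes (4.17%) were higher in Trf1flox/flox mice, *Rnf123*, *Klhl28*, *Trim39*, *Fbxo31* and *Rnf111*, against 3.54% of all tested genes. *Trim12c* alone (0.833%) was lower, against 1.01% of all tested genes. Both shares were near those of all genes, so the counts are no result about the ligases. edgeR on the recovered reads gave 0 ligase genes at an adjusted p under 0.05, with 0 higher and *Klhl24* alone lower (0.833%) at an unadjusted p under 0.05, against 1.26% and 0.702% of all tested genes. DESeq2 gave 0 of the 116 ligase genes with an adjusted p, against 0.617% of all genes. At an unadjusted p under 0.05, DESeq2 gave 3 higher (2.5%) and 2 lower (1.67%), against 2.44% and 1.68% of all tested genes. These 5 were *Klhl24*, *Klhl28*, *Rnf123*, *Trim12c* and *Trim39*.

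Many ligase genes were high in one library and near 0 in another of the same genotype, as the heat map of the tested genes shows. All 3 Trf1flox/flox values lay above all 3 Trf1+/+ values for 10 of the 120 tested ligase genes (8.33%), against 5.35% of all tested genes, and below them for 4 (3.33%), against 3.33%. The 10 were *Fbxo31*, *Klhl28*, *Rnf10*, *Rnf111*, *Rnf115*, *Rnf123*, *Rnf166*, *Rnf20*, *Rnf208* and *Trim39*, and the 4 were *Fbxl12*, *Fbxo44*, *Klhl24* and *Trim12c*. Of the 10, 7 were at the floor in the library labelled Trf1+/+ replicate 1, as were 0 of the 4. The within-group SD of a tested ligase gene on the log2 scale had a median of 2.49, against 2.17 over all tested genes.

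**Figure D1:**
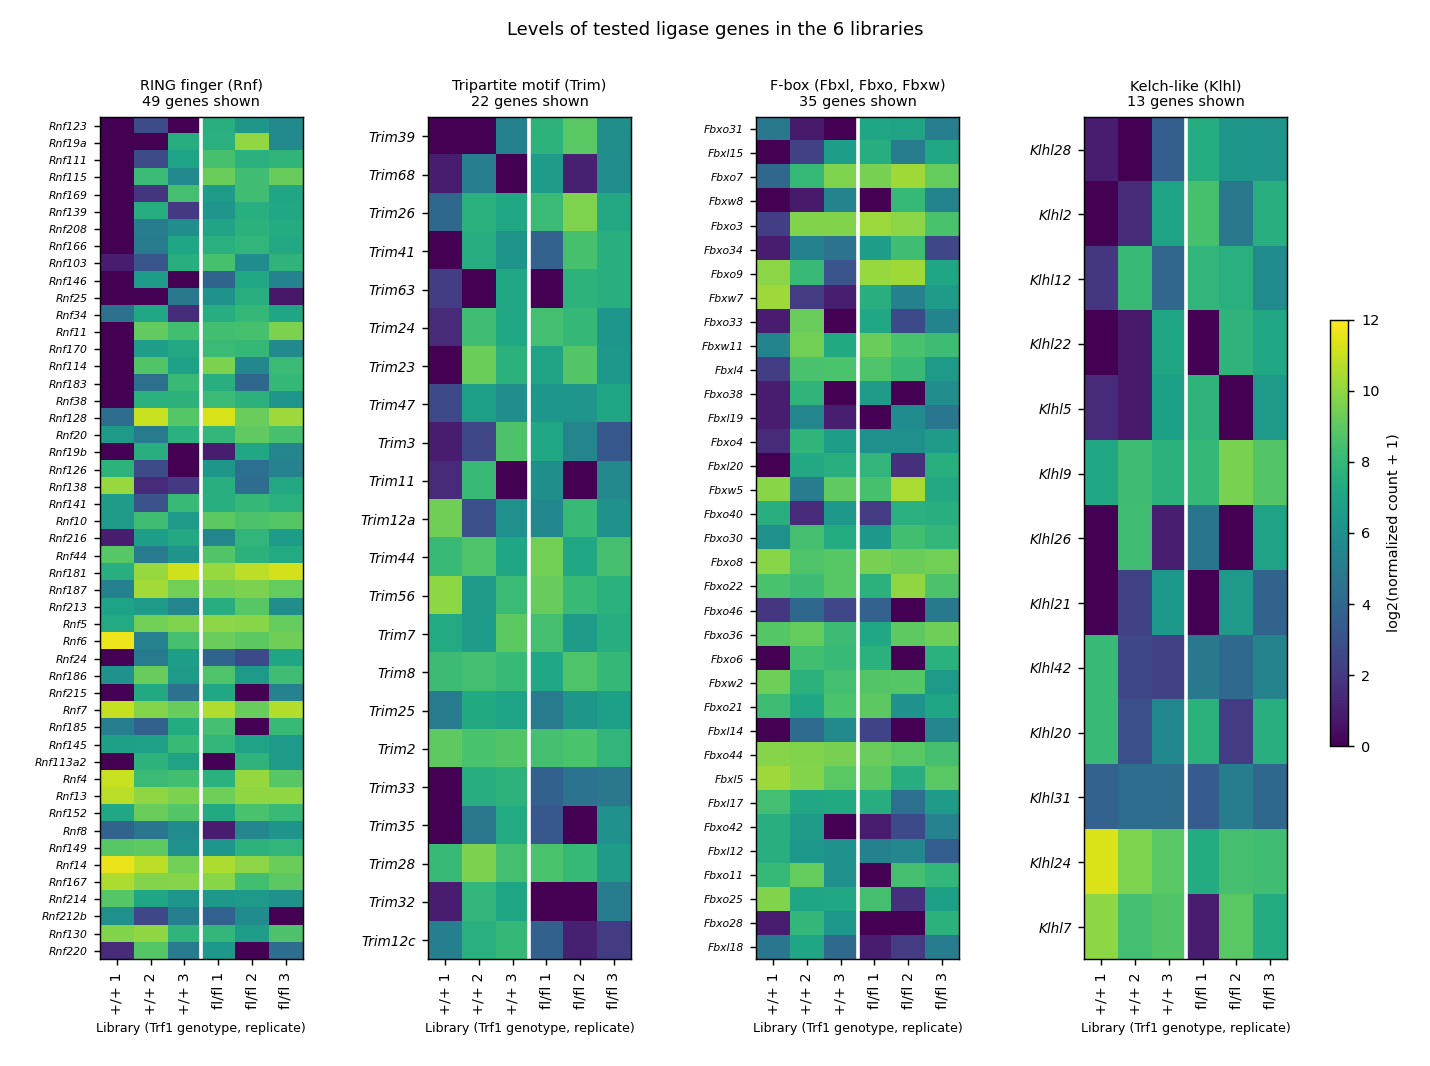
Level of the tested ligase genes, all but 1 of them shown, as log2(normalized count + 1), with 1 panel per family, genes in rows ordered by log2 fold change from the highest and the 6 libraries in columns (+/+ for Trf1+/+ and fl/fl for Trf1flox/flox mice). Dark cells at or near 0 occur in every library and are most frequent in the first column, where 51 of the 120 tested genes had at most 3 reads.

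Among the RING finger genes, 49 of 63 were tested, of which 36 had a positive and 13 a negative log2 fold change. Their median was 1.72, against 0.20 over all tested genes. Here and below, higher and lower in such tallies give this sign, that of the difference between the mean log2 values of the groups. This sign can oppose the difference of the mean counts. *Fbxw7*, given below, had a log2 fold change of 2.06, but mean counts of 402 in Trf1+/+ and 109 in Trf1flox/flox mice. *Rnf123* (ENSMUSG00000041528, chromosome 9, 108051534 to 108083346 on GRCm38) encodes the catalytic subunit of the KPC ligase, which acts on the cell cycle inhibitor encoded by *Cdkn1b*. It had 0, 5.80 and 0 normalized counts in Trf1+/+ against 186, 82.0 and 52.4 in Trf1flox/flox mice. The groups did not overlap and averaged 1.93 ± 3.35 (SD, n = 3) against 107 ± 70.4 (SD, n = 3). Its log2 fold change was 5.63 with a standard error of 1.12 (unadjusted p = 0.0022 and adjusted p = 0.262 from limma). *Rnf123* was the 1 tested ligase gene that passed the filter through the Trf1flox/flox libraries alone. It thus had to differ, and its p-values and its lack of overlap support nothing. Other genes share 18.0% of the exon bases of *Rnf123*, and of these *Gmppb* covers the most. *Gmppb* had 0, 0 and 0 normalized counts in Trf1+/+ against 273, 303 and 88.2 in Trf1flox/flox mice. The kit does not mark strand, and the part of *Gmppb* transcripts in the counts of *Rnf123* was not tested.

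*Rnf111* (ENSMUSG00000032217, chromosome 9, 70425424 to 70503725 on GRCm38), or Arkadia, degrades inhibitors of SMAD signaling downstream of TGFβ. It had 0, 5.80 and 122 normalized counts in Trf1+/+ against 369, 203 and 231 in Trf1flox/flox mice. The Trf1flox/flox values were all higher, but Trf1+/+ replicate 3 stood far above the other two libraries of its group. The log2 fold change was 4.78 with a standard error of 1.79 (unadjusted p = 0.0363 and adjusted p = 0.996 from limma), and 3.17 without the library labelled Trf1+/+ replicate 1. *Rnf208* had 0, 33.1 and 57.2 normalized counts in Trf1+/+ against 127, 207 and 167 in Trf1flox/flox mice, and its log2 fold change of 3.71 had an unadjusted p of 0.0653 and was 1.89 without that library.

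*Rnf20* encodes the ligase that ubiquitinates histone H2B together with the product of *Rnf40*. It had 90.9, 29.8 and 205 normalized counts in Trf1+/+ against 249, 537 and 358 in Trf1flox/flox mice, without overlap and with a log2 fold change of 2.12 (standard error 0.99). Its partner *Rnf40* was not tested and had 0, 0.829 and 0 normalized counts in Trf1+/+ against 0, 12.0 and 112 in Trf1flox/flox mice. *Rnf40* was thus at the floor in 4 libraries, among them Trf1flox/flox replicate 1, where *Rnf20* was not. *Rnf10*, *Rnf115* and *Rnf166* were named after their values were seen, for the lack of overlap. *Rnf10*, whose product ubiquitinates ribosomal proteins when ribosomes stall, had 87.3, 314 and 88.7 normalized counts in Trf1+/+ against 501, 404 and 455 in Trf1flox/flox mice. *Rnf115* had 0, 290.0 and 53.2 normalized counts in Trf1+/+ against 624, 315 and 585 in Trf1flox/flox mice, and *Rnf166* had 0, 29.0 and 131 normalized counts in Trf1+/+ against 194, 238 and 151 in Trf1flox/flox mice. Of the 3, *Rnf10* alone was above the floor in every library, and the others were listed at 0 in the one labelled Trf1+/+ replicate 1. Without that library, the log2 fold changes of *Rnf10*, *Rnf115* and *Rnf166* were 1.43, 1.96 and 1.61.

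**Figure D2:**
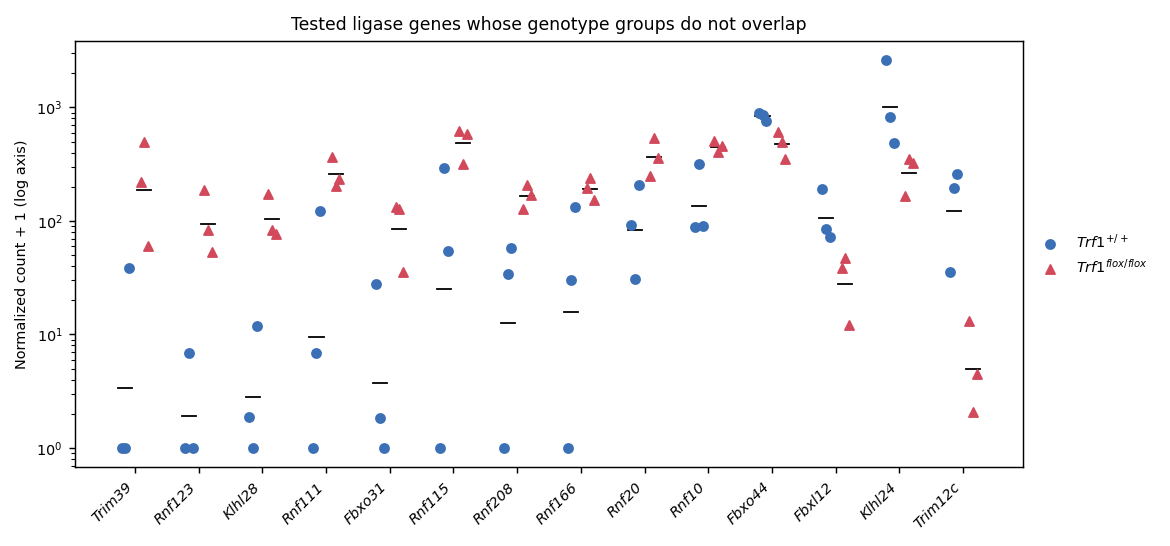
Normalized count + 1 on a log axis for the 14 tested ligase genes whose genotype groups do not overlap, with circles for Trf1+/+ and triangles for Trf1flox/flox mice and a bar at each group's mean of the log values. The 7 genes with a circle at or near the bottom from the library labelled Trf1+/+ replicate 1, and the narrow gaps of *Fbxo44* and *Fbxl12*, can be read from it.

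The RING genes with the highest mean over the 6 libraries were *Rnf181*, *Rnf14* and *Rnf7*. Per kilobase of exon, the highest mean was that of *Rnf7*, at 893 normalized counts per kilobase, followed by *Rnf181* at 516, *Rnf5* at 466, *Rnf187* at 354 and *Rnf128* at 328. Of the 50-base stretches, 27.4% of those of *Rnf7* and 28.5% of those of *Rnf5* also occurred in other genes, and none of those of *Rnf181*, *Rnf187* or *Rnf128*. *Rnf7* encodes RBX2, the small RING subunit of CUL5 ligases, and had 1968, 887 and 599 normalized counts in Trf1+/+ against 1517, 587 and 1555 in Trf1flox/flox mice. *Rnf14*, first described as a coactivator of the androgen receptor, had 3217, 1779.8 and 704 normalized counts in Trf1+/+ against 1481, 977 and 639 in Trf1flox/flox mice. *Rnf181* had 184, 1143 and 2249 normalized counts in Trf1+/+ against 1137, 1779 and 2361 in Trf1flox/flox mice. These abundant genes overlapped between the genotypes, with log2 fold changes of 0.14, -0.71 and 1.11, which were 0.61, -0.20 and 0.07 without the library labelled Trf1+/+ replicate 1.

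A group of RING ligases spans the membranes of endosomes and lysosomes. Of 7 such genes listed, 6 were tested, 1 was higher and 5 were lower, with a median log2 fold change of -0.53, which was -0.48 without the library labelled Trf1+/+ replicate 1. *Rnf130* (Goliath) had 849.7, 1038 and 227 normalized counts in Trf1+/+ against 249, 103 and 403 in Trf1flox/flox mice. *Rnf167*, whose product sits on lysosomes and endosomes, had 1467, 886 and 889.8 normalized counts in Trf1+/+ against 947, 325 and 511 in Trf1flox/flox mice. *Rnf13* had 1750.2, 1019 and 791 normalized counts in Trf1+/+ against 661, 1019 and 1029.5 in Trf1flox/flox mice, and *Rnf149* had 468, 519.5 and 66.0 normalized counts in Trf1+/+ against 77.3, 216 and 234 in Trf1flox/flox mice. Their unadjusted p-values in limma were 0.21, 0.287, 0.677 and 0.572, so the differences were within the spread between libraries. *Rnf128* (GRAIL), known from unresponsive T cells, was the 1 member that was higher and had 18.7, 2020.0 and 452 normalized counts in Trf1+/+ against 2509, 621 and 1191 in Trf1flox/flox mice, with 2.23 as log2 fold change and 0.36 without the library labelled Trf1+/+ replicate 1. *Rnf150* was at the floor in all 6 libraries. The sixth tested gene, *Rnf152*, encodes a lysosomal ligase that acts on the nutrient sensor mTORC1, and had 139, 602 and 445 normalized counts in Trf1+/+ against 157, 380.3 and 283 in Trf1flox/flox mice.

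In the endoplasmic reticulum, RING and F-box ligases mark misfolded and short-lived membrane proteins. Of 9 such genes listed, 8 were tested, 6 were higher and 2 were lower, with a median log2 fold change of 1.35 that was 0.21 without the library labelled Trf1+/+ replicate 1. *Rnf5* had 159, 688 and 818 normalized counts in Trf1+/+ against 972, 934 and 577 in Trf1flox/flox mice. Its paralog *Rnf185* had 33.8, 12.4 and 167 normalized counts in Trf1+/+ against 340.3, 0 and 272 in Trf1flox/flox mice, and thus was listed at 0 in Trf1flox/flox replicate 2, where *Rnf5* was high. *Rnf139* (TRC8), a sterol-sensing ligase, had 0, 175 and 2.96 normalized counts in Trf1+/+ against 75.6, 191 and 145 in Trf1flox/flox mice, and *Rnf145*, another sterol-responsive ligase, had 113, 114 and 271 normalized counts in Trf1+/+ against 242, 120.2 and 88.9 in Trf1flox/flox mice. None of the 8 had an unadjusted p under 0.05.

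For Wnt, TGFβ and NF-κB signaling, 10 ligase genes were listed and 9 tested. Of these, 6 were higher and 3 lower, with a median log2 fold change of 2.43 that was 0.33 without the library labelled Trf1+/+ replicate 1. *Rnf146*, which degrades axin in the Wnt pathway, had 0, 91.1 and 0 normalized counts in Trf1+/+ against 13.7, 144 and 40.7 in Trf1flox/flox mice. Of its exon bases, 76.8% lie in other genes, of which *Echdc1* covers the most. *Echdc1* had 288, 214 and 156 normalized counts in Trf1+/+ against 86.8, 190.2 and 14.5 in Trf1flox/flox mice. *Rnf11*, an adaptor of the NF-κB regulator A20, had 0, 549 and 333 normalized counts in Trf1+/+ against 327, 363 and 784 in Trf1flox/flox mice. In the 5 libraries other than Trf1+/+ replicate 1 the values of *Rnf11* overlapped, with a log2 fold change of 0.08. *Rnf43*, which removes Wnt receptors from the cell surface, was not tested and had 0, 0.829 and 69.0 normalized counts in Trf1+/+ against 152, 1.09 and 0 in Trf1flox/flox mice.

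Of the 30 tripartite motif genes, 22 were tested, with 13 higher and 9 lower and a median log2 fold change of 0.46. *Trim39* (ENSMUSG00000045409, chromosome 17, 36258873 to 36272247 on GRCm38), whose product is an inhibitor of the anaphase-promoting complex, had the largest positive log2 fold change of all tested ligase genes. It had 0, 0 and 37.4 normalized counts in Trf1+/+ against 218, 494 and 59.3 in Trf1flox/flox mice. The groups did not overlap, although Trf1flox/flox replicate 3 and Trf1+/+ replicate 3 lay close together. The log2 fold change was 5.79 with a standard error of 1.74 (unadjusted p = 0.0153 and adjusted p = 0.708 from limma).

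*Trim12c* (ENSMUSG00000057143, chromosome 7, 104338754 to 104353362 on GRCm38) had the most negative log2 fold change of all tested ligase genes. It had 34.7, 195 and 257 normalized counts in Trf1+/+ against 12.0, 1.09 and 3.45 in Trf1flox/flox mice, on average 162 ± 115 (SD, n = 3) against 5.52 ± 5.76 (SD, n = 3). Every Trf1+/+ library lay above every Trf1flox/flox library, including the one labelled Trf1+/+ replicate 1. The log2 fold change was -4.62 with a standard error of 1.19 (unadjusted p = 0.00773 and adjusted p = 0.511 from limma), and -5.51 without that library. Its relatives, printed above with it, overlapped between genotypes. *Trim12a* had 682, 6.63 and 63.1 normalized counts in Trf1+/+ against 47.3, 279 and 68.2 in Trf1flox/flox mice, and *Trim5*, which was not tested, had 0.891, 0.829 and 0.985 normalized counts in Trf1+/+ against 0, 0 and 31.7 in Trf1flox/flox mice. *Trim34a*, from the same cluster on chromosome 7, was not tested in the fit over all libraries and had 0.891, 104 and 30.5 normalized counts in Trf1+/+ against 0, 0 and 0 in Trf1flox/flox mice. With 3 reads per library as the floor for the Trf1flox/flox group it was at least 17.0-fold lower in that group, and 59.7% of its 50-base stretches occur in other genes, of which *Trim34b* shares the most.

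Innate immune TRIMs, which tune antiviral signaling, were split, with 3 of 6 tested genes higher and 3 lower. *Trim26* had 15.1, 201 and 148 normalized counts in Trf1+/+ against 288, 827 and 151 in Trf1flox/flox mice and *Trim25*, which ubiquitinates the RNA sensor RIG-I, had 28.5, 156 and 122 normalized counts in Trf1+/+ against 30.9, 82.0 and 107 in Trf1flox/flox mice. *Trim56*, one of the most abundant Trim genes, had 1010.1, 86.2 and 294 normalized counts in Trf1+/+ against 586, 272 and 203 in Trf1flox/flox mice. These values overlapped between genotypes, with log2 fold changes of 2.08, -0.33 and 0.11, which were 0.94, -1.08 and 1.00 without the library labelled Trf1+/+ replicate 1. *Trim65* was not tested and had 0.891, 2.49 and 0 normalized counts in Trf1+/+ against 222, 109 and 7.58 in Trf1flox/flox mice, so its groups did not overlap while all 3 Trf1+/+ libraries were at the floor.

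Of the chromatin TRIMs, *Trim28* encodes KAP1, the corepressor recruited by KRAB zinc finger proteins. It had 281, 781 and 351 normalized counts in Trf1+/+ against 386, 261 and 98.5 in Trf1flox/flox mice, with a log2 fold change of -0.98 (standard error 0.93). *Trim33*, a ligase that acts on SMAD4, had 0, 175 and 214 normalized counts in Trf1+/+ against 12.0, 22.9 and 26.2 in Trf1flox/flox mice. In *Trim33* the Trf1+/+ replicates 2 and 3 lay above all Trf1flox/flox values and the library labelled Trf1+/+ replicate 1 was at 0, so that the log2 fold change was -0.72 with it and -3.25 without it (unadjusted p = 0.753 and 0.01 from limma). *Trim24*, which acts on p53, had 1.78, 321 and 144 normalized counts in Trf1+/+ against 343, 251 and 79.2 in Trf1flox/flox mice. Among TRIMs of the cytoskeleton and of growth, *Trim32*, whose mutations cause a muscular dystrophy, had 0.891, 239 and 132 normalized counts in Trf1+/+ against 0, 0 and 33.1 in Trf1flox/flox mice. Its log2 fold change was -3.60 (unadjusted p = 0.177) and -5.78 without the library labelled Trf1+/+ replicate 1 (unadjusted p = 0.028, both from limma). *Trim2*, a ligase for neurofilament light chain, was among the steadiest ligase genes and had 515, 369.5 and 427 normalized counts in Trf1+/+ against 349, 387 and 240.5 in Trf1flox/flox mice. The remaining gene with one of the smallest p-values, *Trim68*, had 0.891, 34.0 and 0 normalized counts in Trf1+/+ against 97.1, 1.09 and 58.6 in Trf1flox/flox mice.

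**Figure D3:**
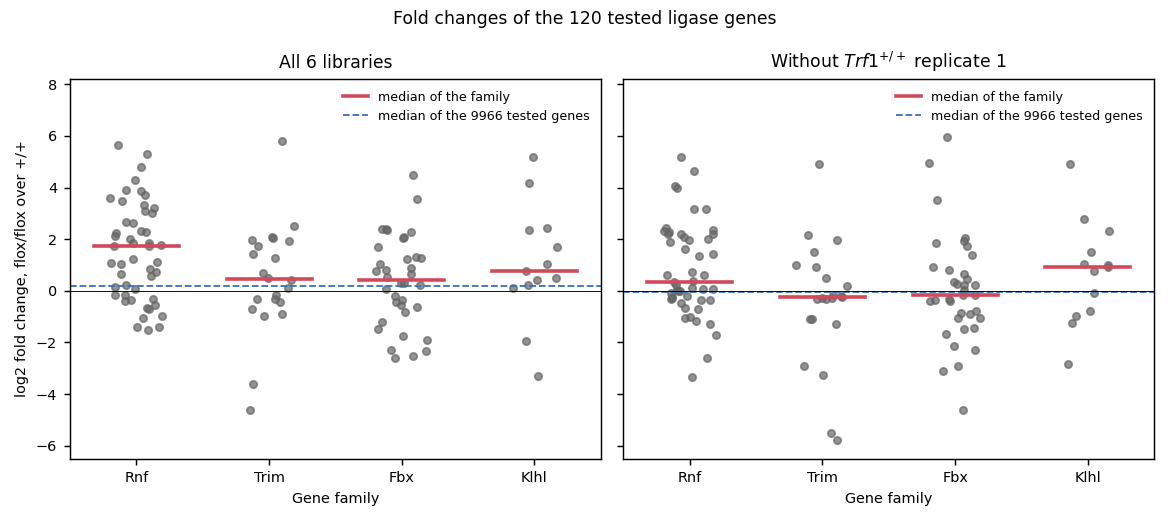
Log2 fold change (Trf1flox/flox over Trf1+/+) of each of the 120 tested ligase genes by family, from all 6 libraries on the left and without the library labelled Trf1+/+ replicate 1 on the right, with a bar at each family's median and a dashed line at the median of all 9966 tested genes. The Rnf median drops from 1.72 to 0.33 between the panels, and the Trim and Fbx medians go from above 0 to -0.26 and -0.17.

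Of the F-box genes, 36 of 47 were tested, with 22 higher and 14 lower and a median log2 fold change of 0.42. *Fbxo31* (ENSMUSG00000052934, chromosome 8, 121549440 to 121578806 on GRCm38) encodes the substrate receptor that degrades cyclin D1 after DNA damage. It had 26.7, 0.829 and 0 normalized counts in Trf1+/+ against 131, 127 and 34.5 in Trf1flox/flox mice. The groups did not overlap, by a small margin between Trf1+/+ replicate 1 and Trf1flox/flox replicate 3. The log2 fold change was 4.51 with a standard error of 1.48 (unadjusted p = 0.0218 and adjusted p = 0.86 from limma).

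*Fbxl12* (ENSMUSG00000066892, chromosome 9, 20618118 to 20644767 on GRCm38) and *Fbxo44* (ENSMUSG00000029001, chromosome 4, 148152800 to 148160482 on GRCm38) were lower without overlap. *Fbxl12* had 189, 84.5 and 70.9 normalized counts in Trf1+/+ against 37.8, 45.9 and 11.0 in Trf1flox/flox mice, with a log2 fold change of -1.91 (unadjusted p = 0.086 from limma). Other genes share 37.1% of the exon bases of *Fbxl12*, and of these *Ubl5* covers the most. *Ubl5* had 1493, 2042 and 823 normalized counts in Trf1+/+ against 589, 822 and 1355 in Trf1flox/flox mice, and its groups overlapped. *Fbxo44* had 901, 859 and 752 normalized counts in Trf1+/+ against 612, 491 and 349 in Trf1flox/flox mice, with the narrow log2 fold change of -0.82 and an unadjusted p of 0.308. It was one of the most abundant F-box genes, beside *Fbxo3* and *Fbxo8*. *Fbxo8* had 923, 412 and 464 normalized counts in Trf1+/+ against 739, 629 and 691 in Trf1flox/flox mice, within a narrow range in all libraries. *Fbxo3* had 3.56, 841 and 842 normalized counts in Trf1+/+ against 1164, 952 and 376 in Trf1flox/flox mice, high in 5 libraries and near the floor in the one labelled Trf1+/+ replicate 1.

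Among F-box receptors with known substrates, 13 of 15 listed genes were tested, of which 10 were higher and 3 lower with a median log2 fold change of 0.79, and 0.25 without the library labelled Trf1+/+ replicate 1. None had an unadjusted p under 0.05 in the fit over all 6 libraries. *Fbxl5*, the iron-sensing receptor that degrades the iron regulatory protein IRP2, had 1213, 877 and 482 normalized counts in Trf1+/+ against 495, 178 and 486 in Trf1flox/flox mice. *Fbxo7*, a gene of familial parkinsonism, had 15.1, 261 and 828 normalized counts in Trf1+/+ against 739, 1234 and 578 in Trf1flox/flox mice. Their log2 fold changes were -1.19 and 2.41, each under 2 standard errors, and -0.89 and 0.80 without the library labelled Trf1+/+ replicate 1. Outside this list of receptors, *Fbxl15* and *Fbxl18* were named for p-values among the smallest of the F-box genes. *Fbxl15* had 0, 4.14 and 101 normalized counts in Trf1+/+ against 175, 31.7 and 142 in Trf1flox/flox mice. *Fbxl18* had 24.9, 136 and 16.8 normalized counts in Trf1+/+ against 0.859, 3.28 and 33.1 in Trf1flox/flox mice. *Fbxo32*, which encodes the muscle atrophy ligase atrogin-1, was at the floor in all 6 libraries.

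Of the Kelch-like genes, 13 of 19 were tested, with 11 higher and 2 lower and a median log2 fold change of 0.76. *Klhl28* (ENSMUSG00000020948, chromosome 12, 64938833 to 64965534 on GRCm38) had the smallest p-value of the family. Its values were 0.891, 0 and 10.8 normalized counts in Trf1+/+ against 173, 82.0 and 76.5 in Trf1flox/flox mice. The Trf1flox/flox values lay far above the others, on average 3.91 ± 6.02 (SD, n = 3) against 110.4 ± 54.0 (SD, n = 3). The log2 fold change was 5.20 with a standard error of 1.16 (unadjusted p = 0.00395 and adjusted p = 0.361 from limma), and 4.91 without the library labelled Trf1+/+ replicate 1. No exon base of *Klhl28* lies in another gene, and no 50-base stretch of it occurs elsewhere among genes.

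*Klhl24* (ENSMUSG00000062901, chromosome 16, 20097542 to 20129221 on GRCm38), whose product degrades keratin 14 and whose mutations cause skin fragility, was lower without overlap. It had 2611, 823 and 481 normalized counts in Trf1+/+ against 163, 348 and 324 in Trf1flox/flox mice, on average 1305 ± 1144 (SD, n = 3) against 278 ± 100.3 (SD, n = 3). The log2 fold change was -1.93 with a standard error of 0.96 (unadjusted p = 0.09 from limma), and -1.25 without the library labelled Trf1+/+ replicate 1, which held the highest value. *Klhl7*, mutated in a form of retinitis pigmentosa, was the other one with a negative log2 fold change (-3.29) and had 1002, 336 and 427 normalized counts in Trf1+/+ against 0.859, 489.6 and 167 in Trf1flox/flox mice. That value rests on Trf1flox/flox replicate 1, since Trf1flox/flox replicate 2 lay above Trf1+/+ replicates 2 and 3.

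Counting these last 2, the CUL3 adaptors with a known role held 8 tested genes, 6 higher and 2 lower. *Klhl2*, which degrades the salt-regulating WNK kinases of the kidney, had 0, 1.66 and 124 normalized counts in Trf1+/+ against 359, 27.3 and 190.2 in Trf1flox/flox mice. *Klhl12*, which acts on the coat protein SEC31, had 2.67, 281 and 14.8 normalized counts in Trf1+/+ against 241, 193 and 53.7 in Trf1flox/flox mice. *Klhl9*, which acts on Aurora B in mitosis, had 142, 308 and 212 normalized counts in Trf1+/+ against 250.0, 761 and 437 in Trf1flox/flox mice. Their unadjusted p-values in limma were 0.0885, 0.209 and 0.259, none past 0.05.

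Because the deleted gene protects telomeres, the ligases known from telomeres and DNA damage were described together. Of 9 such genes, 8 were tested, with 5 higher and 3 lower and a median log2 fold change of 1.36, which was 1.41 without the library labelled Trf1+/+ replicate 1. The near-equal medians hide moves of single genes in opposite directions, given below. Without that library, *Fbxo31*, *Fbxw7* and *Rnf138* passed the filter through the Trf1flox/flox libraries alone. In the fit over all 6 libraries *Fbxo31*, given above, was the 1 gene of the list with an unadjusted p under 0.05. *Fbxo4*, whose product targets TRF1 itself and cyclin D1, had 1.78, 231 and 102 normalized counts in Trf1+/+ against 63.6, 63.4 and 97.9 in Trf1flox/flox mice. Its log2 fold change was 0.87 (standard error 1.75) and turned to -1.06 without the library labelled Trf1+/+ replicate 1. *Rnf8*, which starts the ubiquitin signal at double-strand breaks and uncapped telomeres, had 13.4, 24.9 and 55.2 normalized counts in Trf1+/+ against 0.859, 45.9 and 72.4 in Trf1flox/flox mice. *Rnf168*, which extends that signal on histones, was not tested and had 0, 4.14 and 2.96 normalized counts in Trf1+/+ against 515, 1.09 and 1.38 in Trf1flox/flox mice. *Rnf168* was thus above 5 normalized counts in Trf1flox/flox replicate 1 alone. *Rnf169*, which binds the same mark, had 0, 2.49 and 355 normalized counts in Trf1+/+ against 95.4, 322 and 136 in Trf1flox/flox mice.

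*Rnf4*, a ligase for SUMO-modified proteins, had 2050.4, 288 and 328 normalized counts in Trf1+/+ against 204, 1094 and 466 in Trf1flox/flox mice, and *Rnf138*, which acts in the resection of broken ends, had 1145, 1.66 and 2.96 normalized counts in Trf1+/+ against 187, 18.6 and 149 in Trf1flox/flox mice. *Fbxw7*, the receptor for cyclin E, MYC and NOTCH, had 1201, 3.31 and 0.985 normalized counts in Trf1+/+ against 189.9, 38.2 and 97.9 in Trf1flox/flox mice. In *Rnf138* and *Fbxw7* the library labelled Trf1+/+ replicate 1 held the highest value of all 6, and the other Trf1+/+ libraries were near the floor. Without it, the log2 fold changes were 4.66 and 4.95 (unadjusted p = 0.015 and 0.0052 from limma), against 1.84 and 2.06 with it. In that fit both genes passed the filter through the Trf1flox/flox libraries alone, where they were high, so these p-values support nothing.

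Leaving out the library labelled Trf1+/+ replicate 1 moved the balance of the families. Over the same 120 genes the median log2 fold change went from 0.78, with 82 genes (68.3%) higher and 38 lower, to 0.08, with 63 (52.5%) higher and 57 lower. Over all tested genes it went from 0.20, with 55.9% higher, to -0.03, with 48.9% higher. By family, the medians without it were 0.33 for Rnf, -0.26 for Trim, -0.17 for Fbx and 0.92 for Klhl. In a fit without it, 8 of 144 tested ligase genes were higher at an unadjusted p under 0.05, against 3.04% of all tested genes, and 4 were lower, against 1.7%. Of the 8, 7 passed the filter of that fit through the Trf1flox/flox libraries alone, all but *Klhl28*, and so had to differ, as did *Trim34a* of the 4, which passed through the Trf1+/+ libraries alone. The counts are thus a description only. The 8 were *Fbxo31*, *Fbxw7*, *Klhl28*, *Klhl42*, *Rnf123*, *Rnf126*, *Rnf138* and *Trim65*, and the 4 were *Trim12c*, *Trim32*, *Trim33* and *Trim34a*. *Rnf123*, *Klhl28*, *Fbxo31* and *Trim12c* had an unadjusted p under 0.05 in limma with and without that library. However, *Rnf123* passed the filter of both fits, and *Fbxo31* that of the second fit, through the Trf1flox/flox libraries alone. None of the 4 had an adjusted p under 0.05.

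Dropping in and out of detection was frequent among the ligase genes, as it was among all genes. At least 100 normalized counts in one library and at most 3 reads in another were found for 84 of the 159 listed genes (52.8%), against 43.6% of all listed genes. By family these were 34 Rnf, 18 Trim, 21 Fbx and 11 Klhl genes. At the other end, 19 ligase genes (11.9%) had at least 100 normalized counts in all 6 libraries, against 23.0% of all genes. In the library labelled Trf1+/+ replicate 1, 87 ligase genes (54.7%) were at the floor, against 43.8% of all genes. In the other libraries 16 to 44 ligase genes were at the floor, the fewest in Trf1flox/flox replicate 3. The families together took 0.271% to 0.417% of all normalized counts of a library. No difference between ligases and other genes was tested here, and the share at the floor moves with the level of a gene.

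**Figure D4:**
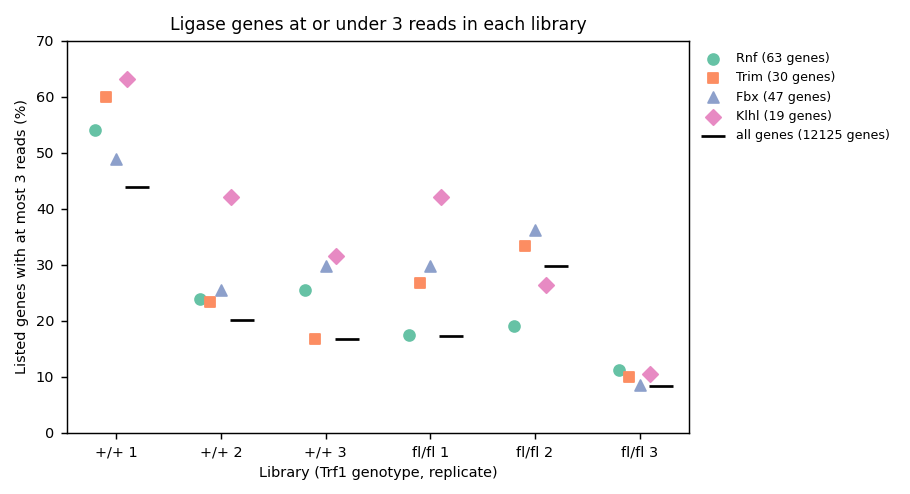
Percent of listed genes with at most 3 reads in each library (+/+ for Trf1+/+ and fl/fl for Trf1flox/flox mice), with one symbol per ligase family and a black line for all 12125 listed genes. In the library labelled Trf1+/+ replicate 1 all 4 families lie above 48% and above the line, and in Trf1flox/flox replicate 3 all lie near 10%.

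The 39 ligase genes that were not tested were low in most libraries, 29 of them being at the floor in at least 4. Some were high in single libraries. *Klhl14* was listed at 0 throughout Trf1+/+ mice and had 0.859, 177 and 0.689 normalized counts in Trf1flox/flox mice, and *Klhl25* was listed at 0 there with 0, 245 and 7.58. *Fbxl2* likewise had 0 throughout Trf1+/+ mice against 152, 0 and 112 in Trf1flox/flox mice, and *Rnf125* had 0 against 178, 0 and 79.2. Against a floor of 3 reads per library, the Trf1flox/flox mean was at least 22.0-fold higher for *Klhl14*, 31.1-fold for *Klhl25*, 32.5-fold for *Fbxl2* and 31.7-fold for *Rnf125*. Each of these bounds rests on 1 or 2 libraries, with at least 1 Trf1flox/flox library of each gene at the floor, and has no test.

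The partners of the ligases, in a list of 42 genes for cullins, E1 and E2 enzymes, adaptors and other RING ligases, describe the machinery around them. Of the 42, 37 were listed and 36 tested, with 17 higher and 19 lower and a median log2 fold change of -0.06. At an unadjusted p under 0.05, 3 were higher, *Kbtbd2*, *Rbck1* and *Ube2d1* (8.33%), against 3.54% of all tested genes, and 0 were lower, against 1.01%. None had an adjusted p under 0.05 in limma. *Cul1*, the scaffold of the F-box ligases, had 892, 196 and 912 normalized counts in Trf1+/+ against 662, 1035 and 588 in Trf1flox/flox mice, and its adaptor *Skp1* had 8799, 4203 and 3124 normalized counts in Trf1+/+ against 2885, 3858 and 4676 in Trf1flox/flox mice. *Rbx1*, the RING subunit of both cullin ligases, had 3780.1, 2117 and 1948 normalized counts in Trf1+/+ against 2429.9, 1863 and 3197 in Trf1flox/flox mice. These core genes were above the floor in every library and overlapped between genotypes. *Cul3*, the scaffold of the Kelch-like adaptors, had 2928, 1129 and 619 normalized counts in Trf1+/+ against 421, 74.3 and 329 in Trf1flox/flox mice. Its groups did not overlap, the Trf1flox/flox values being lower, with a log2 fold change of -2.54 (standard error 1.09, unadjusted p = 0.0572 and adjusted p = 0.996 from limma). *Kbtbd2*, a BTB-Kelch adaptor of CUL3 outside the Klhl family, had 22.3, 0.829 and 0 normalized counts in Trf1+/+ against 304, 351 and 73.7 in Trf1flox/flox mice. *Ube2d1*, an E2 that works with many RING ligases, had 0, 4.97 and 135 normalized counts in Trf1+/+ against 358, 226 and 145 in Trf1flox/flox mice, while its close relative *Ube2d3* had 5782, 2842 and 2866 normalized counts in Trf1+/+ against 2827, 2136 and 2072 in Trf1flox/flox mice.

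Sequence features that the choice by symbol did not use were also read. The median coding length was 1137 bases in Rnf, 1600.5 in Trim, 1456.5 in Fbx (without the antisense RNA) and 1812 in Klhl genes, and the Klhl genes spanned only 1479 to 2124 bases. At least 10% of the exon bases lay in other genes for 23 of the 159, and at least 10% of the 50-base stretches occurred in another gene for 29. Promoters, taken as 250 bases before to 50 after each RefSeq start, were matched for 123 ligase genes (167 promoters) and 9136 listed genes (11689 promoters). A median of 20 CG per 300 bases was found in both, with 22 in Rnf, 15 in Trim, 20 in Fbx and 25 in Klhl promoters. The ETS motif CCGGAAG, searched on both strands like the others, occurred in 21.0% of ligase promoters and 17.9% of all. It was in 7 of 18 Klhl promoters (38.9%) and 4 of 31 Trim promoters (12.9%). The NRF1 motif GCATGCGC occurred in 4.79% and 5.10%, and the CREB motif TGACGTCA in 2.40% and 3.04%. None of these motifs was found in the promoters of *Rnf123*, *Klhl28*, *Fbxo31* or *Trim12c*.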

How the data were processed

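For each mouse, RNA of 500 sorted kidney cells was turned into cDNA from oligo(dT) primers, PCR-amplified and sequenced with a kit that keeps no strand. Per the labels and the study's methods, the authors aligned reads with TopHat2 2.0.10 and Bowtie 1.0.0 and counted them per gene with HTSeq 0.6.1. The methods name GRCm38 and the submitters' processing notes GRCm39, and the build behind the table was not settled here. The deposited values are a normalized signal, read counts divided by 1 size factor per library, for which the notes name DESeq2. All values (100%) came out as whole reads within a tolerance of 0.01. Coordinates and exon overlaps were read from GENCODE vM21 on GRCm38 and promoters from RefSeq on GRCm38.p6.

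Genotypes, from the labels, were compared with limma 3.58.1 (R 4.3.3) on log2(normalized count + 1) over the 9966 genes that reached 10 normalized counts in 3 or more libraries (2 where one was left out), with Benjamini-Hochberg adjustment over all of them. The added count of 1 shrinks the fold change of low genes. A library near 0 also weighs much in a mean of logs, so this fold change can exceed or oppose that of the counts. *Fbxo3* had 2.34 in limma and 0.47 in edgeR, and *Fbxw7* had 2.06 and -1.67. The median of the ligase genes was 0.78 in limma and 0.20 in edgeR. Nothing but the mouse separates replicates in the labels, so p-values measure the spread between these 6 mice. edgeR 4.0.16 and DESeq2 1.42.0 on the recovered reads, a pseudocount of 10, no filter, upper quartile scaling and leaving out each library were alternatives. Named genes were those with an unadjusted p under 0.05, the 3 with the smallest p in each direction and the 3 with the highest mean of each family, members of role lists written from general knowledge, and up to 5 genes per family that were not tested. The values of 1 gene are not reported here. The members, gene lists and tests were chosen with earlier results of these data known.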

Additional observations from a re-analysis of the deposited data

How the results depend on the processing

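No ligase gene reached an adjusted p under 0.05 under any alternative. The 23 genes named for small p-values kept their direction in all 276 values under the alternatives, but they were chosen in the same data. Leaving out the filter or adding a mean-variance trend does not change a fold change in limma, so there the direction could not differ. The counts of ligase genes at an unadjusted p under 0.05 are given with the share of all tested genes called in the same direction. edgeR found 0 higher (1.26% of all genes) and 1 lower (0.702%), and DESeq2 3 higher (2.44%) and 2 lower (1.68%). limma without the filter found 6 higher (3.65%) and 2 lower (0.983%), and limma with a mean-variance trend, added after the data were seen, 3 higher (2.1%) and 1 lower (1.03%). Leaving out single libraries gave 6 to 13 higher, against 3% to 7.12% of all genes, and 1 to 4 lower, against 0.657% to 1.7%. The most higher calls came without Trf1+/+ replicate 3, with 13 of 133 ligase genes (9.77%) and 7.12% of all genes. Without Trf1+/+ replicate 2 there were 10 (4.49% of all genes) and without Trf1+/+ replicate 1 there were 8 higher and 4 lower (3.04% and 1.7%). With a library left out, 2 libraries were enough to pass the filter. Genes could then pass through the libraries of a single genotype alone and so had to differ, and these counts are a description only. Groups without overlap numbered 18 to 24 higher, against 9.1% to 13.7% of all genes, and 5 to 11 lower, against 5.74% to 10.2%, with one library fewer, as 5 values separate more readily than 6. The counts without overlap rose for all genes as well. The Rnf median log2 fold change was 0.52 in edgeR and 0.56 in DESeq2 and 0.24 to 1.61 with one library left out, lowest without Trf1+/+ replicate 1. Trim and Fbx medians turned negative in edgeR (-0.35 and -0.14), in DESeq2 (-0.36 and -0.11) and without Trf1+/+ replicate 1 (-0.30 and -0.13), and the cause was not tested. Upper quartile scaling moved the median of all genes to 0.44 and that of the ligases to 1.04. No paired analysis was possible because the labels used here tie no replicate number of one genotype to the other. Depth limits the statements on genes at or under 3 reads, where absence cannot be told from loss in a library of 500 cells.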
